A study of Homo sapiens with 20 samples.

Results

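The mitochondrial control region is the long non-coding stretch of the mitochondrial genome between the genes of tRNA-Pro (TRNP) and tRNA-Phe (TRNF). Its members here were taken by coordinate alone, as positions 2 to 576 and 16024 to 16569 of the mitochondrial chromosome in GRCh38 numbering, 1121 of the 16570 positions that each profile lists. TRNF begins at 577 and TRNP ends at 16023. Positions 303 to 315, a stretch of 13 positions inside conserved sequence block 2, were read apart from the other 1108.

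The profiles came from a CMC-sequencing study of pseudouridine in mitochondrial RNA of K562, a human chronic myelogenous leukaemia line, with mitochondria isolated by cell fractionation. There were 14 libraries treated with 0.5 M CMC: 4 carried a non-targeting sgRNA (control), 4 an NME6 knockout, 3 an RPUSD4 knockdown, and 3 an NME6 knockout together with WT-NME6 cDNA (rescued). The other 6 of the 20 samples were untreated with CMC: 2 control, 2 NME6 knockout, 1 RPUSD4 knockdown and 1 rescued. They entered only as the part subtracted in each profile and were not analysed on their own. The rescued samples, their untreated one included, carry record numbers apart from those of all other samples. Whether they were made separately is not stated, so rescue cannot be told apart from such a difference. Each profile holds 1 signed value per position, with no strand, base or read count. It is called a level here and is read as percentage points, CMC minus untreated, a unit inferred from the values. Depth is unknown, and a value of exactly 0 may stand for no reads as well as for no difference. No base sequence was used, so none is printed and a position named below need not be a uridine. Whether the replicates were separate cultures is not stated, so the spread given here may be technical, and NME6 and RPUSD4 transcripts, which are nuclear, could not be checked in mitochondrial positions.

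Control region DNA codes for no protein, tRNA or rRNA, but it holds the promoters of both strands and the start of heavy-strand replication. RNA begun at the light-strand promoter runs through conserved sequence blocks 3, 2 and 1 towards lower numbers, where it serves as a replication primer or continues into the light-strand transcript, and conserved sequence block 2 is the known site where much of this RNA ends. A short DNA strand, 7S DNA, starts near the replication origin and ends at the termination-associated side, near TRNP. Transcripts from the heavy-strand promoter run the other way, into TRNF and the rRNAs. Pseudouridine is the 5-ribosyl isomer of uridine, CMC is a carbodiimide that leaves a bulky adduct on it, and the adduct disturbs reverse transcription. RPUSD4 makes pseudouridine in the large mitochondrial rRNA. NME6 belongs to the nucleoside diphosphate kinases and resides in mitochondria.

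A pair of libraries stood apart before any comparison. At positions 307 to 310, control replicate 1 and NME6 knockout replicate 1 were below 0 where the other 3 libraries of each group were above it. Group means and differences at these positions are given with and without them.

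The control region was more often listed at 0 than the rest of the mitochondrial genome. Outside the stretch, between 15.3% and 55.8% of its positions had a value other than 0, against 32.3% to 73.5% of the 15449 positions elsewhere, and the region had the lower share in 14 of 14 libraries. In control libraries the share was 37.2% ± 6.82 (SD, n = 4) in the region and 61.8% ± 13.2 elsewhere. It was 28.2% ± 5.63 (SD, n = 4) in NME6 knockout, 20.1% ± 4.56 (SD, n = 3) in RPUSD4 knockdown and 52.8% ± 4.75 (SD, n = 3) in rescued libraries. The 3 rescued libraries, at 47.3% to 55.8%, lay above all others. The RPUSD4 knockdown libraries, at 15.3% to 24.3%, lay below all others, but nearly touched NME6 knockout, at 24.4% to 36.6%. The shares elsewhere did not order the groups in the same way, since NME6 knockout averaged 47.8% and RPUSD4 knockdown 49.2% there. In all, 855 of the 1108 positions had a value other than 0 in at least 1 library, 253 were at 0 in all 14, 127 were other than 0 in exactly 1 library, and 60 in all 14. The first position with a value was 16 and the last was 16558.

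Values were densest between 7S DNA and conserved sequence block 2, and nearly absent beyond the light-strand promoter. From 192 to 302, which holds conserved sequence block 1, 75.7% ± 13.98 of positions had a value other than 0 (SD over 14 libraries), the highest of the 6 zones outside the stretch in 14 of 14 libraries. In the 13-base stretch itself the share was 87.9% ± 13.4. From 316 to 407, through conserved sequence block 3 to the start of light-strand transcription, it was 45.8% ± 19.3. From 408 to 576, between that start and TRNF, it was 2.07% ± 2.05 with a highest library of 5.92%, the lowest zone in 14 of 14 libraries. There, 159 of 169 positions were at 0 in all 4 control libraries and 147 in all 3 rescued libraries. The last position at which at least 7 of the 14 libraries had a value was 387, and the last with any value was 515.

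**Figure D1:**
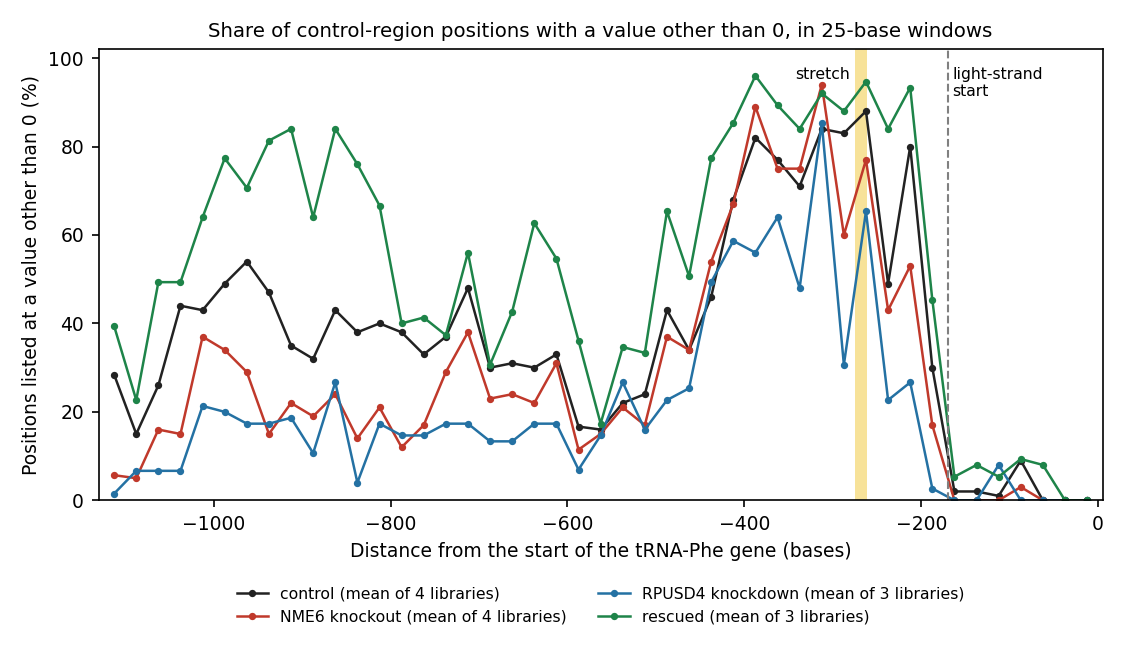
Percent of control region positions listed at a value other than 0 (vertical axis) in windows of 25 bases, against distance in bases from the start of the tRNA-Phe gene (horizontal axis), as the mean of the libraries of each group. The shaded band is the stretch and the dashed line the start of light-strand transcription, beyond which the share over the last 169 positions averaged 2.07%.

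The 3 zones that make up 7S DNA and its TRNP side were between these extremes. Positions 16024 to 16105, next to TRNP, had a value in 20.4% ± 15.2 of places (SD over 14 libraries). The 464 positions from 16106 to 16569 reached 33.3% ± 17.0, and positions 2 to 191 reached 41.7% ± 11.6. The group means lay far apart near TRNP, from 16106 to 16569 and around conserved sequence block 3. Next to TRNP the share was 25.6% ± 8.21 in control, 11.6% ± 8.12 in NME6 knockout, 5.69% ± 2.54 in RPUSD4 knockdown and 39.8% ± 13.6 in rescued libraries. From 16106 to 16569 it was 37.9% ± 7.34 in control, 22.9% ± 5.18 in NME6 knockout, 15.5% ± 3.13 in RPUSD4 knockdown and 58.9% ± 6.41 in rescued libraries. There too the rescued libraries, 51.5% to 62.7%, did not overlap the control libraries, 28.0% to 44.2%. From 316 to 407 the share was 52.7% ± 5.43 in control, 38.6% ± 6.79 in NME6 knockout, 20.7% ± 12.8 in RPUSD4 knockdown and 71.4% ± 4.90 in rescued libraries. In that last zone the rescued libraries, 66.3% to 76.1%, did not overlap the control libraries, 46.7% to 59.8%, and NME6 knockout libraries, 29.3% to 45.7%, lay below both. These shares move with how many positions are listed at 0 for lack of reads, whose part was not tested, since depth is unknown.

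Levels outside the stretch were low and mostly positive. Positions above 0 outnumbered those below 0 in 14 of 14 libraries, and in control libraries they made up 34.5% ± 7.45 and 2.71% ± 0.703 of positions (SD, n = 4). The mean level was 0.131 ± 0.0321 points in control (SD, n = 4), 0.122 ± 0.0312 in NME6 knockout (SD, n = 4), 0.192 ± 0.105 in RPUSD4 knockdown (SD, n = 3) and 0.121 ± 0.00565 in rescued libraries (SD, n = 3). The group ranges overlapped, and the high RPUSD4 knockdown mean came with a single library, replicate 2, at 0.312 points against 0.135 elsewhere. That library read 30.8 points at each of positions 459 to 464. Means elsewhere were 0.139 points in control, 0.141 in NME6 knockout, 0.136 in RPUSD4 knockdown and 0.108 in rescued libraries. The mean in the region was farthest from them in RPUSD4 knockdown, through replicate 2. Replicate 1 of that group was lower in the region, at 0.137 against 0.153 points, and replicate 3 read 0.125 against 0.120. In rescued libraries the region was higher in each, at 0.122, 0.127 and 0.115 points against 0.115, 0.113 and 0.0949 elsewhere. The region was the lower of the pair in 9 of 14 libraries.

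Outside the stretch, 30 positions were above 0 in all 14 libraries, 2.71% of the region against 11.2% of positions elsewhere (1737). Of these, 17 lay in the zone from 192 to 302, 9 between 2 and 191, and 4 between 16106 and 16569, and none lay near TRNP, between 316 and 407 or beyond the light-strand promoter. Position 177, in the part of 7S DNA near the replication origin, had the highest mean of the 30, 1.29 points with a coefficient of variation of 38.6% over the 14 libraries. It measured 0.794, 1.47, 1.02 and 1.72 points in control libraries and 0.402, 1.47, 1.33 and 1.53 in NME6 knockout libraries. It measured 1.82, 2.29 and 1.54 points in RPUSD4 knockdown and 0.860, 0.917 and 0.920 in rescued libraries. The RPUSD4 knockdown libraries were the highest group here and did not overlap NME6 knockout or rescued libraries, but they did overlap control. Its neighbours 176 and 175 averaged 0.936 and 0.596 points, so the signal spread over adjacent bases.

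The other steady positions also came largely in adjacent groups. Positions 269 and 270 averaged 0.876 and 0.827 points over 14 libraries with coefficients of variation of 45.9% and 42.4%. Positions 154 to 156 averaged 0.417, 0.607 and 0.721 points, with their highest values in RPUSD4 knockdown replicate 3 (1.89, 2.44 and 2.44) and coefficients of variation of 90.5% or more. Position 190 was the most even of the 30, at 0.543 points with a coefficient of variation of 36.8%. Position 210 averaged 0.649 points and ranged from 0.0609 to 1.66. In the other arm, 16422 averaged 1.19 points, 16539 0.780, 16523 0.740 and 16480 0.545. Position 16422 ranged from 0.223 points in rescued replicate 2 to 3.61 in RPUSD4 knockdown replicate 2, and the ranges of the 4 groups overlapped.

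**Figure D2:**
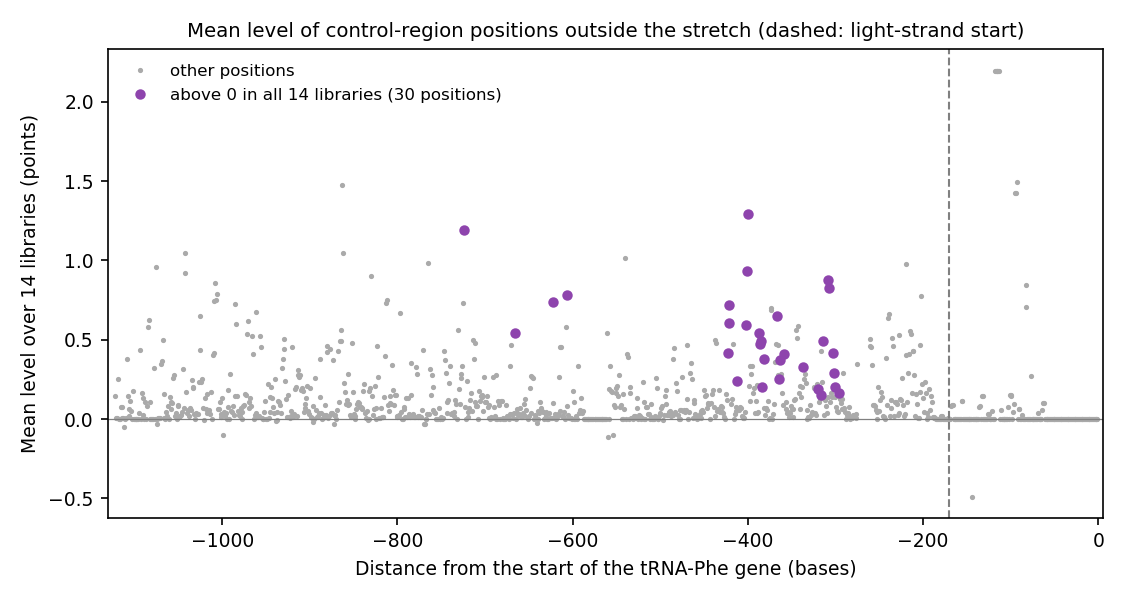
Mean level in points, CMC minus untreated, at each control region position outside the stretch (vertical axis, mean over the 14 libraries) against distance in bases from the start of the tRNA-Phe gene (horizontal axis), with the 30 positions above 0 in all 14 libraries as large points. These lie between 0.154 and 1.29 points, and the tallest points beyond the dashed light-strand start are positions 459 to 464, where a single library held 30.8 points.

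The highest control means outside the stretch were not all at steady positions. The 10 highest in control were 495, 494, 16283, 357, 177, 16184, 16284, 16381, 16121 and 16422. Position 495 was first only through replicate 2 at 8.33 and replicate 4 at 3.51 points, with 0 in the other 2 control libraries and in all 10 libraries of the other groups. Position 357, in the zone of conserved sequence block 3, was more even, at 1.34, 0.760, 1.65 and 1.44 points in control. It measured 0.611, 0.936, 1.28 and -0.0573 points in NME6 knockout, 1.26, 1.21 and -0.249 in RPUSD4 knockdown and 1.58, 1.08 and 0.878 in rescued libraries, and the 4 groups overlapped. Position 16184 was 0.706, 0.986, 1.42 and 1.74 points in control and 0.0517, 0.310 and 0.102 in rescued libraries, which lay below every control library. In NME6 knockout it was 2.497, -0.0421, -0.0128 and 0.856 points, a spread that covered both.

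Large values outside the stretch belonged to single libraries. Of 15512 values there, 21 were 5 points or more in size, at 21 different positions. Positions 459 to 464, between the light-strand promoter start and TRNF, all read 30.8 points in RPUSD4 knockdown replicate 2 and 0 in the 13 other libraries. Positions 482 to 484 read 20 points in NME6 knockout replicate 4, and apart from 0.926 at 484 in rescued replicate 1 every other library was at 0. Position 16070, near TRNP, read 12.1 points in RPUSD4 knockdown replicate 3, and no other library exceeded 1.46. Neighbours 16138 to 16140 read 6.49, 6.49 and 6.47 points in the same library, and 16283 and 16284 read 6.19 and 6.31. Of the 21 values, 15 came from RPUSD4 knockdown, 4 from NME6 knockout, 2 from control and 0 from rescued libraries. This tally counts each base of the runs 459 to 464 and 482 to 484 on its own, so its values are not independent.

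Several of these large values were runs of exactly equal neighbours. Among positions with a value other than 0, the share in a run of 2 or more identical neighbours (equal within 1e-09) had a median of 2.58% over the 14 libraries in the region, with a range of 0.317% to 6.07%. Elsewhere the median was 0.525%, with a range of 0.267% to 3.35%. The longest run in the region was the 6 bases from 459 to 464. Rescued libraries, which had the fewest zeros, had the smallest shares in runs, at 0.745%, 0.317% and 0.800%. The part of depth in these runs was not tested.

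Negative values in the region recurred between libraries of a group. All 18 pairs of libraries from 1 group had positions with the same negative value, 6 to 28 per pair, and none of the 73 pairs from different groups had any. The same negative value stood in every library of a group at 7 positions in control, 3 in NME6 knockout, 19 in RPUSD4 knockdown and 9 in rescued libraries, and at none in the stretch. Position 17, the lowest outside the stretch in control, was -0.546 points in all 4 control libraries, 0 in all NME6 knockout and RPUSD4 knockdown libraries, and 0.496, 0 and 0.0775 in rescued libraries. Of the 10 lowest control positions (17, 16033, 16034, 16200, 16201, 66, 16505, 16154, 16155 and 16250), 6 had the same value in all 4 libraries. RPUSD4 knockdown, with the most positions of the same negative value, and rescued libraries have 1 untreated sample each in the labels. Control and NME6 knockout have 2 each, and there 4 libraries rather than 3 must agree. What sets these counts was not tested.

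The stretch held 42 of the region's values of 5 points or more in size, against 21 in all other positions. Its 42 large values, of 182, all lay at 307 to 310 and reached 24.8 points in size, less than the 30.8 points at 459 to 464 in a single library. Positions 303 to 306 ranged from -2.27 to 4.19 points, 311 to 313 from 0 to 0.559, and 314 and 315 from -0.0452 to 1.58. These 13 positions made up between 8.55% and 33.96% of the summed size of all control region values in a library. They held the lowest value of the whole mitochondrial profile in 5 libraries and the highest in 2.

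The sign at 307 to 310 split the libraries within control and NME6 knockout as well as between groups. All 4 bases were below 0 in 5 libraries (control replicate 1, NME6 knockout replicate 1 and RPUSD4 knockdown replicates 1 to 3) and none was below 0 in the other 9. Position 308 was -7.56, 13.03, 12.7 and 13.4 points in control and -3.88, 22.8, 20.1 and 22.3 in NME6 knockout. It was -3.14, -10.6 and -21.6 points in RPUSD4 knockdown and 13.1, 11.3 and 2.29 in rescued libraries. Leaving out replicate 1, control fell in a narrow band of 13.1 ± 0.367 points and NME6 knockout of 21.7 ± 1.44 (SD, n = 3 each), against 7.90 ± 10.3 and 15.3 ± 12.9 with it (SD, n = 4). Position 309 followed 308, from -24.8 points in RPUSD4 knockdown replicate 3 to 17.6 in NME6 knockout replicate 2.

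Position 307 set NME6 knockout farthest from control. It measured -1.34, 18.8, 19.2 and 19.5 points in NME6 knockout and -9.44, 4.54, 4.16 and 6.25 in control. It measured -5.29, -7.77 and -15.1 points in RPUSD4 knockdown and 14.1, 12.6 and 3.41 in rescued libraries. All 4 NME6 knockout libraries were above all 3 RPUSD4 knockdown libraries, while NME6 knockout replicate 1 lay inside the control range. Without replicate 1, NME6 knockout was 19.2 ± 0.357 points and control 4.98 ± 1.11 (SD, n = 3 each), against 14.04 ± 10.3 and 1.38 ± 7.27 with it (SD, n = 4).

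Position 310 stood above its neighbours in the rescued cells. It measured 20.04, 15.02 and 4.595 points in rescued libraries, the highest base of the stretch in all 3 of them. In control it measured -3.80, 7.21, 6.07 and 6.57 points, in NME6 knockout -7.72, 5.29, 4.11 and 7.21, and in RPUSD4 knockdown -0.855, -1.82 and -9.58. In control replicates 2 to 4 and NME6 knockout replicates 2 to 4 the highest base was 308 instead. Position 310 minus 308 was 4.32 ± 2.39 points in rescued libraries (SD, n = 3), -3.89 ± 5.12 in control (SD, n = 4), -13.1 ± 6.27 in NME6 knockout (SD, n = 4) and 7.71 ± 4.96 in RPUSD4 knockdown libraries (SD, n = 3). Without replicate 1 it was -6.44 ± 0.552 points in control and -16.2 ± 1.26 in NME6 knockout (SD, n = 3 each). The rescued libraries, 2.30 to 6.96 points, did not overlap NME6 knockout libraries, and of the control libraries only replicate 1, at 3.76, lay among them. Positions 310 and 308 were picked as the highest bases of these groups after their values were seen. The separation follows in part from that choice and is no support for a difference.

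**Figure D3:**
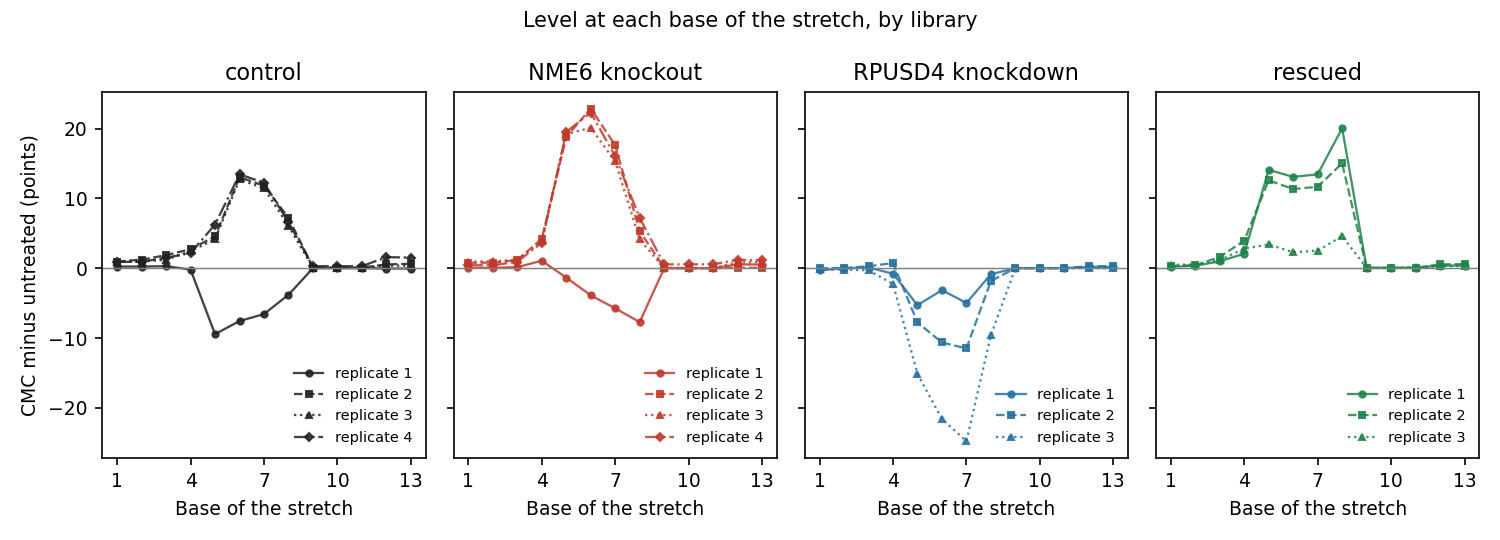
Level in points, CMC minus untreated (vertical axis), at each of the 13 bases of the stretch (horizontal axis, base 1 is position 303), with 1 line per library and 1 panel per group. Bases 5 to 8 carry the large values, below 0 in replicate 1 of control and NME6 knockout and in all 3 RPUSD4 knockdown libraries, and highest at base 8 in the 3 rescued libraries.

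A negative level sets a lower limit on the untreated library if the values are percentage points. On that reading, the share of altered reads without CMC was at least 24.8% at 309 in RPUSD4 knockdown, at least 9.44% at 307 in control and at least 7.72% at 310 in NME6 knockout. No rescued library was below 0 in the stretch, so no limit follows for that group. The control and NME6 knockout limits come only from replicate 1 of each group: without these libraries no value at 307 to 310 was below 0 in either group and no limit follows. In RPUSD4 knockdown the limit was 11.5% without replicate 3.

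Group differences were tested with limma on 149 mitochondrial positions with a mean level of at least 1 over the 14 libraries, adjusted by Benjamini-Hochberg over all 149. Of the control region, 20 positions entered: 306 to 310 in the stretch, and 37, 177, 459 to 464, 482 to 484, 16104, 16283, 16284 and 16422 outside it. Of the 15 outside, 12 had a mean under 1 without their highest library (all but 177, 16283 and 16422), so a single library put them in the test. None of the 5 in the stretch did. Each group enters several of the 5 comparisons, which therefore share samples. The identical negative values point to 1 untreated profile subtracted from all libraries of a group, so libraries of a group share that part at every position. The fit does not hold it, the errors and p-values below leave out the spread between untreated libraries, and a group difference, the call at 307 included, cannot be told apart from a difference between untreated profiles.

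Against RPUSD4 knockdown, NME6 knockout was higher at position 307. It differed by 23.4 points (SE 5.68, 95% interval 10.98 to 35.9, limma adjusted p = 0.0471, n = 4 and 3), the only control region call of the 5 comparisons. In this comparison 3.36% of all positions tested were called, 5 of 149. The neighbours just missed the threshold: 306 differed by 3.96 points (limma adjusted p = 0.0561), 308 by 27.1 and 309 by 24.5 (limma adjusted p = 0.0645 for both). Position 310 differed by 6.31 points (limma adjusted p = 0.573). Position 307 passed in 5 of 17 alternative settings. Without NME6 knockout replicate 1 it differed by 28.6 points (limma adjusted p = 0.00821), and 306, 308 and 309 passed with it, at 4.66, 33.5 and 30.04 points. Leaving out any 1 of the other 6 libraries of both groups, 307 did not pass, with differences of 20.6 to 25.5 points and limma adjusted p from 0.0794 to 0.231. An exact two-sided permutation test of 307 gave p = 0.0571, the smallest that 4 against 3 libraries allow, and 0.292 after adjustment over the 23 exact tests made.

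Outside the stretch no control region position passed between NME6 knockout and RPUSD4 knockdown, either adjusted or at an unadjusted limma p under 0.05, which 4 of the 5 stretch bases and 14 of all 149 positions had. Position 16104, at the edge of 7S DNA near TRNP, was 4.67, 0.566, 1.39 and 0.422 points in NME6 knockout and 0 in all 3 RPUSD4 knockdown libraries. These groups did not overlap, but at 1.76 points (SE 0.819) the threshold was missed (limma adjusted p = 0.530). Position 177 was 0.702 points lower in NME6 knockout (SE 0.352, limma adjusted p = 0.535), again with no overlap. Over all positions, groups did not overlap at 4.06% of the region outside the stretch and at 5.50% elsewhere in this comparison.

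Between RPUSD4 knockdown and control, all 5 fitted bases of the stretch had lower means in RPUSD4 knockdown, and none passed the threshold. The share called over all 149 positions was 0.671%, 1 position. The differences were -21.0 points at 309 (SE 6.88, limma adjusted p = 0.322), -19.7 at 308 (SE 7.64, limma adjusted p = 0.407), -10.8 at 307, -8.09 at 310 and -2.56 at 306. At an unadjusted limma p under 0.05, 3 of the 5 stretch bases, 0 of the 15 positions outside it and 13 of all 149 positions differed. With both libraries numbered 1 of control and NME6 knockout left out, 4 stretch bases (306 to 309) passed, with -25.6 points at 309 and -24.8 at 308 (limma adjusted p = 0.0151 for both), and -14.4 at 307. With the filter also set on the 12 libraries kept, 308 and 309 passed. Without control replicate 1 alone the differences were the same and the adjusted p at 309 was 0.151 by limma. Control replicate 1, at -7.56 points at 308, lay among the RPUSD4 knockdown libraries. Outside the stretch, 459 to 464 differed by 10.3 points each (SE 5.71, limma adjusted p = 0.499), all through RPUSD4 knockdown replicate 2.

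Between NME6 knockout and control no control region position passed, and 0% of the 149 positions were called. Position 307 was 12.7 points higher in NME6 knockout (SE 5.26, 95% interval 1.12 to 24.2, limma adjusted p = 0.768), and it was the only control region position with an unadjusted limma p under 0.05, of 7 among all 149. The differences at 308, 309 and 310 were 7.44, 3.55 and -1.79 points, with SE of 7.07, 6.37 and 4.23. Libraries of these groups with the same number deviated together. Those numbered 2 to 4 did so across unlike numbers as well, so only the libraries numbered 1 were set apart. This was judged over fitted positions that include 306 to 310. Even differences and a smaller SE at these bases therefore follow in part from that choice and are no support for a difference. Within numbers 1 to 4 the differences were far more even. At 307 they were 8.10, 14.3, 15.03 and 13.3 points, at 308 3.68, 9.82, 7.41 and 8.84, and at 309 0.822, 5.79, 3.84 and 3.76. At 306 they were 1.26, 1.46, 1.38 and 1.49 points, so 306 to 309 were higher in NME6 knockout in 4 of 4 numbers, while 310 was lower in 3 of 4. At 306 to 309, NME6 knockout replicates 2 to 4 lay above all control libraries, so matching them otherwise gives the same count. With the number as a block in a fit of these groups alone, chosen after the data were seen, SE fell to 2.13 at 307 and 1.40 at 308, and neither passed (limma adjusted p = 0.191 and 0.218). Without both libraries numbered 1, 307 differed by 14.2 points (limma adjusted p = 0.141), and 308, 309 and 310 by 8.69, 4.46 and -1.08. Without control replicate 1 the difference at 309 turned to -1.05 points, and without NME6 knockout replicate 1 that at 310 turned to 1.53.

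Between rescued and NME6 knockout cells, 310 was the control region position with the largest difference, 10.99 points higher in rescued libraries (SE 4.57, 95% interval 0.974 to 21.0, limma adjusted p = 0.232). The share called over all positions was 3.36%, 5 of 149, and none of them lay in the control region. The other fitted stretch bases had lower means in rescued libraries, by -4.02 points at 307, -6.44 at 308 and -1.59 at 309, each within 1 SE. With both libraries numbered 1 left out these were -9.14, -12.8 and -7.10 points (limma adjusted p = 0.0949, 0.0939 and 0.354), and 310 was 7.68 points higher (limma adjusted p = 0.201). An unadjusted limma p under 0.05 was found at 310, at 0 of the 15 positions outside the stretch and at 23 of all 149.

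Between rescued and control cells, 2.68% of the 149 positions were called (4), again with none in the control region. Over all 13 bases of the stretch, 6 had higher and 7 had lower means in rescued libraries. All 5 fitted bases had higher means there, from 0.999 points at 308 to 9.21 at 310 (SE 4.57, limma adjusted p = 0.535). This direction rested on control replicate 1 at 308 and 309: without it they were -4.16 and -2.63 points, while 307 and 310 stayed higher by 5.04 and 6.60. None of the 20 control region positions had an unadjusted limma p under 0.05, against 14 of all 149. Position 16104 was 2.05, 2.005 and 1.80 points in rescued libraries and 1.28, 0.188, -0.00699 and 0.263 in control, with no overlap. It differed by 1.52 points (SE 0.819), which missed the threshold (limma adjusted p = 0.630). Without control replicate 1 it was 1.80 points (limma adjusted p = 0.342). In this comparison groups did not overlap at 6.95% of the region outside the stretch and at 9.68% elsewhere.

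**Figure D4:**
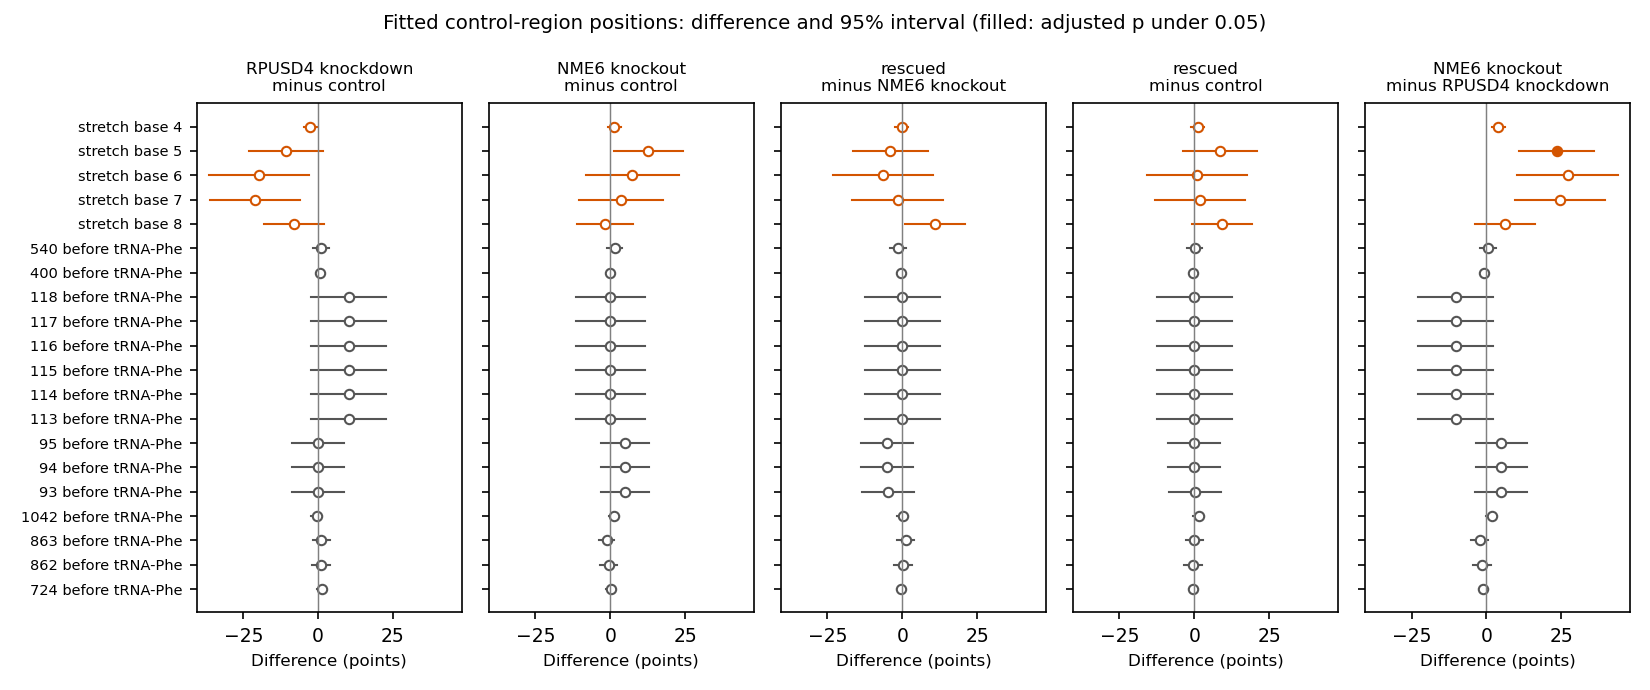
Fitted differences in points with 95% intervals from limma (horizontal axis) at the 20 control region positions that were tested (vertical axis, by distance in bases before the tRNA-Phe gene), 1 panel per comparison. The interval of 1 base of the stretch between NME6 knockout and RPUSD4 knockdown, 10.98 to 35.9 points at position 307, belongs to the only difference that passed the adjusted threshold.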

How the data were processed

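CMC profiles of K562 mitochondrial RNA were read for 14 libraries. The authors deposited 1 signed score for each position, a difference by the name of its column, without unit, depth or base. Trimmomatic, STAR and SAMtools (no versions) and the build names GRCh38 and hg38 come from the submitters' processing notes. The sources used here do not state how altered reads were called. That positions are GRCh38 mitochondrial coordinates was assumed: each list runs from 2 to 16571, past the end of the control region at 16569.

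Samples were grouped by their labels. Shares, means and zones are descriptions without a test. The 7 zones follow textbook landmarks. Differences were tested with R 4.3.3 and limma 3.58.1 (lmFit, then eBayes with a variance trend, two-sided) on the untransformed scores, over 149 positions with a mean of 1 or more, in 1 fit of all 14 libraries. The threshold was 0.05 after Benjamini-Hochberg adjustment over the 149. Group means at named positions were also compared by exact permutation (two-sided, scipy 1.17.1). Tables and plots were made in Python 3.11.15 using pandas 2.3.3, numpy 2.4.6 and matplotlib 3.10.9. The fit was also tried on simulated normal values with independent libraries. Those values lack the zeros, equal runs and shared untreated part of these profiles, so they do not vouch for the p-values here.

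The text names the stretch, the 10 highest and 10 lowest control positions outside it, positions that passed, and fitted positions whose groups did not overlap. Steady positions, large values of 5 points or more, the remaining fitted positions and the contrast of 310 minus 308 were added after their values were seen. The region, the zones, the lists and the tests were chosen with earlier results of these data known.

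Replicate numbers are shared between groups. For NME6 knockout and control, deviations of same-numbered libraries from their group means correlated at 0.471, 0.286, 0.193 and 0.116 over the fitted positions. Each is above 0.1, so a pairing was considered, on the data alone and without support in the labels. The main fit and the exact tests leave it out. It entered only the differences within numbers and the fits with the number as a block. Unlike numbers among 2 to 4 correlated similarly, at 0.0911 to 0.246. The values therefore cannot show a pairing among 2 to 4, only that the libraries numbered 1 deviated together. In the other comparisons at least 1 number did not correlate above 0.1. Alternatives tried were other filters, the 2 groups alone, no variance trend, a signed log2 scale, scaled libraries, the number as a block, leaving out libraries, and leaving out the stretch. A block fit of NME6 knockout and control alone and a filter reset without both libraries numbered 1 were added after the data were seen. Files of untreated samples alone were not used here.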

Additional observations from a re-analysis of the deposited data

Results flagged for a closer look

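In 18 sets of 4 libraries examined (control and NME6 knockout, at named positions and for summaries by library), 12 held a library far from the other 3. Chance marks about 1 in 20 such sets, and the 12 are not independent, since 307 to 310 are neighbours and the mean over the stretch contains them.

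In the stretch from 303 to 315, control replicate 1 stood below the other control libraries at 307 (-9.44 points, nearest other 4.16), 308 (-7.56, nearest 12.7), 309 (-6.57, nearest 11.4) and 310 (-3.80, nearest 6.07). Its mean over the 13 bases was -2.07 points, against 3.14 in the nearest control library. NME6 knockout replicate 1 stood below its group at 307 (-1.34 points, nearest 18.8), 308 (-3.88, nearest 20.1) and 309 (-5.75, nearest 15.3), with a mean over the stretch of -1.25 points against 5.18.

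Outside the stretch, control replicate 1 had the lowest mean level of its group, 0.0833 points against 0.144 in the nearest library, and the lowest share of positions other than 0, 27.1% against 39.8%. NME6 knockout replicate 2 had the highest share of its group, 36.6% against 26.4% in the nearest library.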

How the results depend on the processing

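Outside the stretch, the differences at 16104 (rescued minus control, NME6 knockout minus RPUSD4 knockdown) and 177 (the latter comparison) kept their direction in every setting that fitted them. These were named because their groups did not overlap, and the groups compared at 307 did not overlap either. Leaving out libraries, another filter or a signed log2 scale therefore could not turn these directions, and their keeping is no support. The only call, 307 between NME6 knockout and RPUSD4 knockdown, kept its direction in 17 settings and its call in 5. The count of control region calls in that comparison was 0 with a mean absolute level of 1 or more, a mean of 0.5 or more, the 2 groups alone, scaled libraries, or the stretch left out, 2 with no variance trend, a signed log2 scale or no filter, 4 with both libraries numbered 1 left out, 5 with the filter then also set on the libraries kept (a setting added after the data were seen; the fifth was 176, -0.645 points), and 0 to 4 leaving out 1 library. With the replicate block it stayed at 1 but the call moved to 306 (307 differed by 21.7 points, adjusted p = 0.104 by limma), and the replicate block changed no other count, in all groups or, for NME6 knockout against control, in these groups alone. With both libraries numbered 1 left out, RPUSD4 knockdown against control gave 4 calls, or 2 with the filter reset, and each rescued comparison gave 1, at 16104. That position entered only through NME6 knockout replicate 1 (mean 1.04 over 14 libraries, 0.723 over the 12 kept), and with the filter reset each rescued comparison gave 0. With no filter the counts were 4 for RPUSD4 knockdown and 5 for NME6 knockout against control, and 7 against NME6 knockout and 10 against control for rescued cells. Of all 28 such calls, 27 were at positions with identical values in every library of a group.

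Reversals were within the stretch. Rescued minus NME6 knockout turned at 307 (0.446 points with scaled libraries, 0.33 on the signed log2 scale), 308 (0.25 on the signed log2 scale) and 309 (0.119 with the replicate block, 2.79 scaled, 0.71 signed log2). Rescued minus control turned with both libraries numbered 1 left out, to -4.16 points at 308 and -2.63 at 309. Leaving out 1 library, the ranges crossing 0 were -1.05 to 9.06 at 309 and -4.39 to 1.53 at 310 for NME6 knockout minus control, -7.10 to 1.77 at 309 for rescued minus NME6 knockout, and -4.16 to 4.30 at 308 and -2.63 to 5.32 at 309 for rescued minus control. The cause was not tested.

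The median level outside the stretch, in place of the mean, was 0 in control, NME6 knockout and RPUSD4 knockdown and 0.0179 in rescued libraries, since most positions are at 0. Depth is unknown, so a 0 sets no limit.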
